A study of Homo sapiens with 3 samples.

Results

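Some peaks of an RNA-binding protein were written down more than once, under different genes that lie over the same stretch of the genome. They were found as intervals with the same chromosome, start, end and strand in one peak list under at least 2 different Ensembl gene IDs, on chromosomes 1 to 22 and X. Of 48754 distinct intervals in 3 lists, 1730 were shared in this way. The lists of replicates 1, 2 and 3 held 537, 537 and 656 shared intervals among 15601, 15426 and 17727, which is 3.54% ± 0.139 of a list (SD, n = 3). The shared intervals took up 1114, 1111 and 1367 deposited lines.

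The lists come from easyCLIP, which uses UV light to fix RNA to the proteins that touch it, then pulls down 1 protein, trims its RNA, adds adapters and sequences it. HEK293T, a human embryonic kidney line that carries the SV40 large T antigen and is given the genotype WT in the labels, received 750 ng of vector encoding HA-tagged HNRNPA0 and was irradiated the next day at 254 nm with 0.3 J/cm2. All 3 replicates belong to this 1 group, each from about 2 mg of lysate, taken up on 22 uL of anti-HA magnetic beads, with an RNase I digest of about 3 min at 0.02 U/uL, and they were pooled once the 3' adapters with their replicate barcodes were on. No library without the tagged protein or without irradiation was used here, and the tagged protein was made from a vector in addition to the cell's own. The labels do not say whether the replicates came from separate plates, so differences between lists measure only the spread between these samples, which may be technical.

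HNRNPA0 belongs to the hnRNP A/B family, whose best known member, HNRNPA1, binds nascent and mature RNA and takes part in splicing and RNA transport. The series as a whole is about proteins that meet RNA G-quadruplexes, structures that runs of guanines can form. Human genes overlap in several ways. Small nucleolar RNAs (snoRNAs) guide chemical modification of other RNAs and are mostly cut out of the introns of host genes. Readthrough transcripts run from one gene into the next and are often annotated as a gene of their own. Ensembl also keeps separate gene IDs for transcripts that fall wholly or largely inside another gene. A read from such a stretch carries no mark of which annotated gene it came from.

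Only 4 shared intervals lie wholly within the 250 bases before or 50 bases after a gene's start that the RefSeq promoter table (GRCh38.p14) gives, and sequences of 3 of them are shown. They are one interval of each kind of overlap: a snoRNA in a host intron, a readthrough pair and a pair of IDs on 1 gene. Each reads 5′ to 3′ on the strand of the peak. Capitals mark TAGG, the DNA form of a motif that hnRNP A1 is known to bind, and GGG, a run of guanines, both searched on this strand only, with overlapping matches counted.

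SNORD58B in RPL17: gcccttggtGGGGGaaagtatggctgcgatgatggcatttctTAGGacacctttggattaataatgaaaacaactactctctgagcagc

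NME2 and NME1-NME2: cgccgccgcccggcccctccagcttcccgg

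ZNF655: cggccaggcccgcccctcccctcgg

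The first is chr18:49491664-49491752, minus strand, 89 nt, with a read number of 5 in replicate 3. Its last 66 bases are those of SNORD58B, a C/D box snoRNA of RPL17, a ribosomal protein gene. It holds TAGG at 1 place and GGG at 3 overlapping places. At the same place in the windows of 34943 promoters, a stretch of that length holds TAGG in 18.9% of cases and GGG in 75.0%. The NME2 interval is chr17:51166469-51166498, plus strand, 30 nt, with a read number of 3 in replicate 3, and it ends 2 bases before the start of NME2, a nucleoside diphosphate kinase gene. The ZNF655 interval, in a zinc finger gene, is chr7:99558764-99558788, plus strand, 25 nt, with a read number of 3 in replicate 2. Neither of these holds TAGG or GGG, which at their places and lengths are in 6.29% and 45.0% of promoter windows for NME2, and in 4.93% and 41.3% for ZNF655. The interval not shown, chr15:45587411-45587527 at BLOC1S6, plus strand, 117 nt, had a read number of 4 in replicate 2, and holds GGG at 6 places and TAGG at none. Stretches of promoter windows at its place and length hold GGG in 83.0% of cases and TAGG in 23.6%. A match is a description of these letters and not of a binding site.

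The whole number that ends each peak's name is called the read number and is read as reads in the peak, though the deposited lines do not name it. Within a shared interval it was the same under every gene ID in 536 of 537, 537 of 537 and 656 of 656 cases. The lowest read number in the lists was 3. Over chromosomes 1 to 22 and X, read numbers summed to 100038, 99141 and 114203, of which the shared intervals held 2.92% ± 0.0268 (SD, n = 3). Peaks that touch can hold the same reads, so such sums are descriptions. Their median read number was 4, 3 and 4, and their highest was 43, 41 and 42. Intervals under 1 ID had a median of 4 in each list and reached 393, 405 and 770.

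Most shared intervals had 2 gene IDs, in 500, 504 and 612 cases. A further 35, 29 and 34 had 3, and 1, 4 and 9 had 4. The 2 intervals with 5 IDs, 1 in replicate 1 and 1 in replicate 3, lay at PRH1, a salivary proline-rich protein gene that is annotated together with readthrough genes towards PRR4 and TAS2R14. Over all lists 442 different sets of IDs were found, 141 of them in every list, 106 in 2 lists and 195 in 1. They involved 812 gene IDs. The lists give no gene names, so names were assigned by location in a RefSeq table: 512 of the 812 IDs had at least 90% of their interval centres in 1 RefSeq gene, 216 in several and 84 in none.

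The commonest kind had no more than 1 RefSeq gene at the centre of the interval, called here an interval on 1 RefSeq gene. Each of its IDs had at least 90% of its interval centres in some RefSeq gene. That gene was not required to be the same for all IDs, and an ID could also have lines over a neighbour, as at HNRNPA1 and CALM2. There were 245, 244 and 297 such intervals, or 45.4% ± 0.175 of the shared ones (SD, n = 3). A RefSeq readthrough gene covered 125, 113 and 138, or 21.8% ± 1.29. In 103, 116 and 132, or 20.3% ± 1.22, at least 1 ID had no single gene that held 90% of its interval centres. Some of these IDs had lines over several genes, and some of the intervals had no RefSeq gene at their centre. Several ordinary genes on 1 strand covered 51, 51 and 74, or 10.1% ± 1.03. A small RNA inside a host gene accounted for 10, 10 and 13, or 1.90% ± 0.069, and a small RNA with no host for 3, 3 and 2. In the wider grouping into nested small RNAs, readthrough and same-strand overlap, the last took 56.0% ± 0.741 (SD, n = 3). The order of the kinds was the same in each list down to the small RNAs, except that IDs with no single gene outnumbered readthrough in replicate 2.

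**Figure D1:**
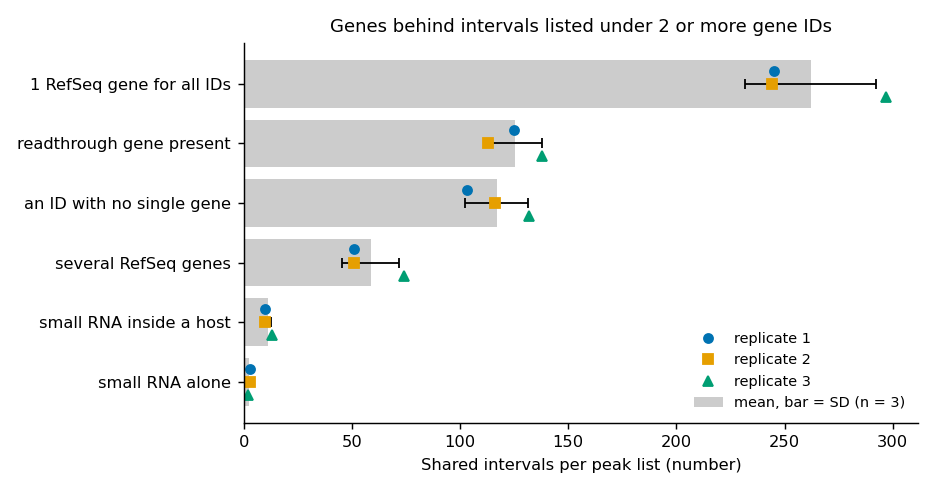
Number of shared intervals per peak list (horizontal axis) for 6 kinds of gene overlap. Grey bars are means over 3 lists with SD, and symbols are the replicates. Intervals on 1 RefSeq gene lead with 245, 244 and 297.

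MATR3, the gene of the nuclear matrix RNA-binding protein matrin 3, held the highest shared interval of replicate 1. Its region in all 3 lists, chr5:139329456-139329647 on the plus strand (hg38), had read numbers of 43, 35 and 40. RPL26, a large-subunit ribosomal protein gene, had 32, 33 and 37 at chr17:8377542-8377693. Both genes kept nearly the same height in every list. ARL6IP1, which encodes a membrane-shaping protein of the endoplasmic reticulum, reached 21, 21 and 25. Its region in all 3 lists had 17, 21 and 25. PRDX2, the gene of a peroxiredoxin that removes peroxides, reached 14 in each list.

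The highest read numbers of other pairs with shared intervals on 1 gene varied more between lists, and need not come from the same interval in each. CLN6, whose product is a membrane protein of the endoplasmic reticulum, reached 18, 20 and 32, and its second ID also had lines over CALML4. TARDBP, the gene of the RNA-binding protein TDP-43, reached 14, 27 and 14, and PTP4A2, a phosphatase gene, 10, 26 and 15. In both, the highest value was in replicate 2. At TARDBP it lay in a region found in all 3 lists, with 14, 27 and 14 reads. The PTP4A2 region in all 3 lists had 10, 15 and 15, so its 26 reads lay elsewhere. HELLS, a chromatin remodeller gene outside the naming rule and chosen after its values were seen, reached 23, 7 and 16, with 6, 1 and 5 shared intervals.

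Genes with different names also met on 1 strand. CHML, the gene of a Rab escort protein, lies within OPN3, an opsin gene, and their IDs shared intervals of up to 21, 15 and 12 reads. The region in all 3 lists was chr1:241631210-241631328, minus strand. MRPS6, a mitochondrial ribosomal protein gene, contains SLC5A3, a myo-inositol transporter gene, and there 3 IDs shared 7, 5 and 6 intervals that reached 10 in each list. CPNE1, a copine gene, and RBM12, which encodes an RNA-binding protein, shared intervals under 3 IDs of up to 8, 6 and 7 reads, and 1 of these IDs also had lines over NFS1, a cysteine desulfurase gene.

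HNRNPA1, the close relative of the tagged protein, stood out in number. Its 2 IDs, ENSG00000135486 and ENSG00000258344, shared 11, 13 and 10 intervals in a stretch of 2846 bases, chr12:54282090-54284935, plus strand. The lines of the second ID went on into COPZ1, a coatomer subunit gene. The highest read numbers were 34, 41 and 42. Of the 44 shared intervals with a read number of at least 20 in any list, 16 were in HNRNPA1, and of the 166 with at least 10 it held 30. Summed over the stretch, the read numbers were 264, 280 and 196, lowest in replicate 3. In replicates 1 and 2 some of these intervals touched, such as 54282575-54282639 and 54282640-54282665 in replicate 1, and touching intervals can hold the same reads. Over all genes, 21, 17 and 6 shared intervals touched another. The part of such splitting in the sums and counts was not tested.

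The HNRNPA1 stretch held 7 of the 71 merged regions that had a shared interval in every list. The region at 54284257-54284318 had 34, 29 and 42 reads, that at 54282799-54282874 had 34, 40 and 29, and that at 54282573-54282665 had 30, 41 and 16. The first was highest in replicate 3 and the other 2 in replicate 2, so the heights did not rise and fall together between lists. Those at 54284548-54284609 and 54283900-54283968 had 28, 24 and 34 and then 19, 19 and 17. The remaining regions, 54283812-54283845 and 54282448-54282487, had 12, 13 and 16 and then 13, 16 and 7. HNRNPA1, RPL26, PRDX2 and other members have processed or near-identical copies elsewhere in the genome, and how reads with several matches were placed is not given in the sources used here.

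**Figure D2:**
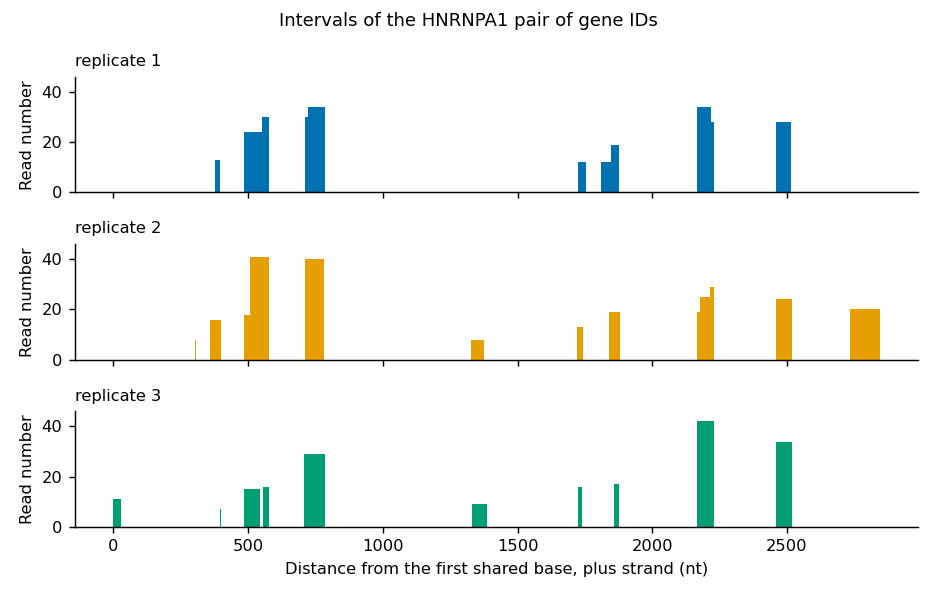
Shared intervals of the HNRNPA1 pair of gene IDs in replicates 1, 2 and 3. The horizontal axis is the distance in nt from the first shared base along the plus strand, and the vertical axis is the read number of each interval. The highest intervals have 34, 41 and 42 reads, and the same groups of intervals recur in the 3 lists.

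CALM2, a calmodulin gene, came next among sets of IDs with 3 regions in every list, and its intervals reached 15, 11 and 8. EIF4A1 with SENP3-EIF4A1 also had 3 such regions, split between a set of 2 IDs and a set of 3. The second ID of CALM2 went on into STPG4. KPNA6, an importin alpha gene, had 2 such regions and reached 12, 16 and 9.

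Readthrough pairs were lower. FKBP1A, whose product is the prolyl isomerase that binds FK506, is joined to SDCBP2 in a readthrough gene, and their shared intervals reached 12, 15 and 12 reads. EIF4A1, the gene of the translation initiation helicase, is joined to SENP3, a SUMO protease gene, and reached 15, 11 and 13 under 2 IDs and 13, 8 and 10 under 3. These highest values varied little between lists, but they need not come from the same interval in each. The EIF4A1 regions in all 3 lists had 15, 11 and 12 reads, then 13, 4 and 13, then 13, 6 and 10. The FKBP1A region had 12, 15 and 9. LUC7L2, which encodes a factor of the U1 small nuclear ribonucleoprotein, and FMC1-LUC7L2 shared 6, 6 and 11 intervals that reached 22, 9 and 16. ZNF664, a zinc finger gene, and ZNF664-RFLNA shared intervals under 3 IDs of up to 15, 17 and 7. In replicate 3 a further interval of theirs, with 22 reads, was listed under only 2 of the 3 IDs, so that their region at chr12:124015025-124015156 had 15, 17 and 22 and replicate 3 was its highest list.

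The other named readthrough pairs stayed at 10 reads or below in all lists. ZFP91, a ubiquitin ligase gene joined to CNTF, a neurotrophic factor gene, reached 10, 9 and 7. SYNJ2BP, a gene for an outer mitochondrial membrane protein joined to COX16, reached 6, 6 and 9. ANKHD1 with EIF4EBP3, a translation repressor gene, had 6, 5 and 5, RPL36A with HNRNPH2, another hnRNP gene, 6, 6 and 5, and DNAJC25 with GNG10, a G protein subunit gene, 6, 4 and 4. Of the readthrough intervals 6.45% ± 2.24 had at least 10 reads, against 12.3% ± 2.81 of those on 1 RefSeq gene (SD, n = 3) and 10.6% of all intervals. HNRNPA1, which is in the kind on 1 RefSeq gene, alone held 30 of the 166 shared intervals with at least 10 reads. The share of that kind without HNRNPA1 was not computed.

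Few shared intervals lay on a small RNA, and their heights ranged widely. Those inside a host had median read numbers of 10, 6.5 and 6 in the lists. SNORD17, a C/D box snoRNA in SNX5, a sorting nexin gene, had shared intervals of up to 25, 29 and 27 reads at chr20:17962762-17962949, minus strand. TRR-CCT4-1, an arginine transfer RNA gene where FMC1 and LUC7L2 overlap, had 14, 25 and 27 at chr7:139340699-139340777, and the interval runs only a few bases past the 73 bases of the tRNA gene at its far end. SNORD17 was steady across lists and the tRNA was lowest in replicate 1. SNORA73B, an H/ACA box snoRNA in SNHG3, a host gene that overlaps RCC1, had 10, 14 and 9. SNORA48, SNORD10 and SNORA67 lie in EIF4A1, with intervals each under 3 IDs, and none of them had a shared interval in every list. SNORA48 had 10 and 12 reads in replicates 1 and 3. SNORD10 had 7 and 6 in replicates 2 and 3, and SNORA67 had 7 in replicate 2. SCARNA16, a guide RNA of Cajal bodies in SNHG20, which overlaps SEC14L1, had 3, 3 and 4, at or next to the lowest read number in the lists. In RPL17, SNORD58A, SNORD58B and SNORD58C held 3 shared intervals of up to 10 reads in replicate 3 and none in the other lists.

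**Figure D3:**
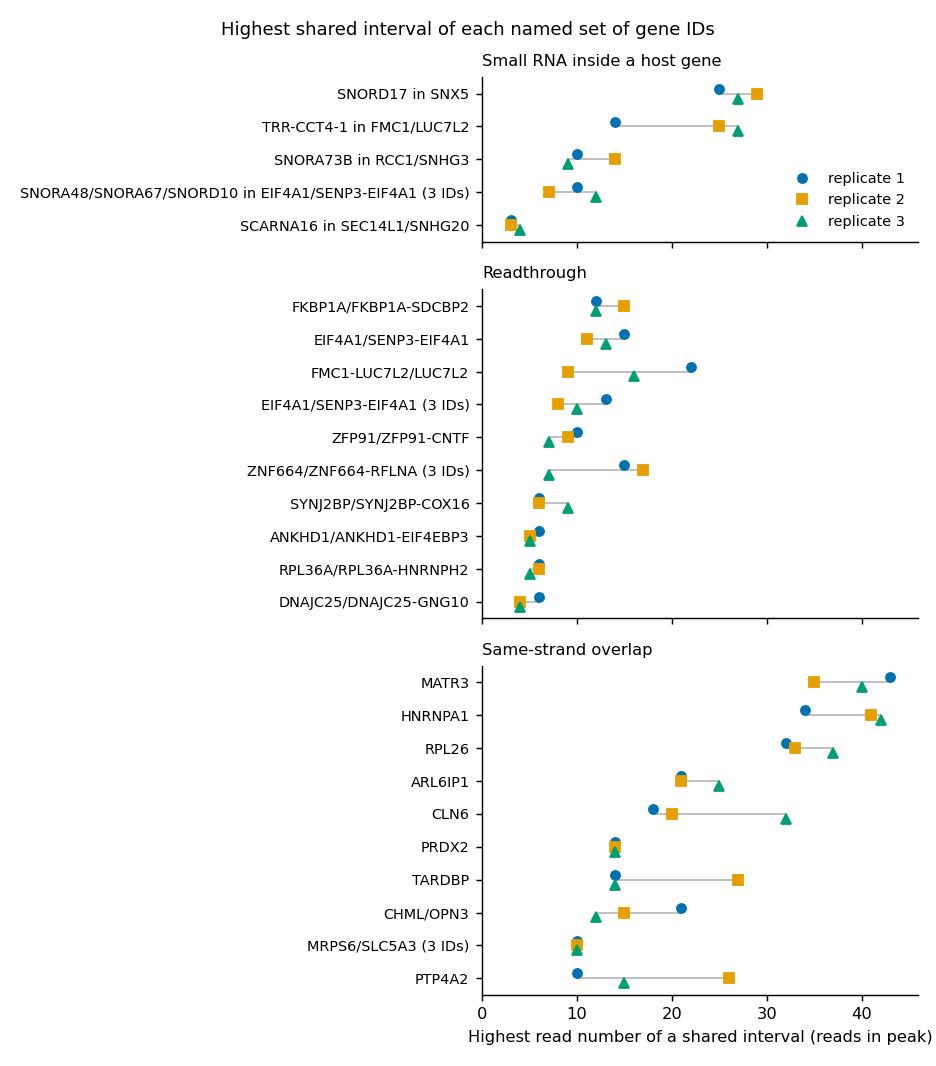
Highest read number of a shared interval in each replicate (horizontal axis) for the named sets of gene IDs, in 3 classes. Grey lines join the lowest and the highest list. MATR3, HNRNPA1 and RPL26 reach 32 or more in every list, SNORD17 in SNX5 at least 25, and no readthrough set passes 22.

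The name of the class says more than the IDs do. Intervals centred on a small RNA inside a host gene numbered 174, 187 and 198 in the lists, and only 10, 10 and 13 were shared. Of the rest, 53, 54 and 54 were under an ID whose lines all but lay in the small RNA, and 111, 123 and 131 under an ID with lines elsewhere. Among the shared ones only 3 in each list had any ID confined to the small RNA. In SNX5 both IDs had lines outside SNORD17. So most intervals on nested small RNAs stood under a single ID. Confined describes only where an ID's lines lay, and an ID with few lines can count as such. At SNORD105B both IDs, with 1 line each, did.

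By family, 12 of 335 SNORD genes within the bounds of a longer gene had a shared interval in any list, 3 of 164 SNORA genes, 1 of 28 SCARNA genes and 1 of 111 tRNA genes. None of 1494 microRNA genes and none of 57 spliceosomal RNA genes did. With any interval, shared or not, the numbers were 91 for SNORD, 55 for SNORA, 13 for SCARNA, 12 for tRNA, 6 for microRNA and 5 for spliceosomal RNA genes. RN7SL1, the RNA of the signal recognition particle, was listed under 2 IDs with up to 7, 5 and 9 reads. SCARNA2 had shared intervals of 17 and 14 reads in replicates 2 and 3, and TERC, the telomerase RNA, of 6 and 7 in replicates 1 and 2. Copies of RN7SL1 are many, so its values are uncertain.

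Some IDs spanned neighbours, and could share intervals with a different ID on each gene. CCDC47, a gene for a chaperone of membrane proteins, had shared intervals of up to 18, 18 and 13 reads. Its second ID also had lines over STRADA, a pseudokinase gene, and shared 1 interval there with another ID. SYNCRIP, which encodes hnRNP Q, reached 24, 11 and 23, but its region in all 3 lists had 9, 11 and 11. Its second ID went on to SNX14 and shared 2 intervals there with another ID. For EIF4G1, the scaffold of cap-dependent translation, the shared intervals reached 7, 7 and 6. The second ID had lines over AP2M1, DVL3, POLR2H and PSMD2 as well. With other IDs it shared 1 interval at AP2M1, 4 at DVL3, 2 at POLR2H and 2 at PSMD2 over all lists.

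One interval under 2 IDs carried 1 read number but not 1 p-value. The authors' p-value differed between the IDs in 99.4% ± 0.28 of shared intervals, while the short inner stretch that each line also gives differed in 2, 0 and 3 cases (SD, n = 3). For most the difference was small: the median ratio of the higher to the lower p was 1.22 ± 0.0232. A ratio of at least 10 was found in 52, 51 and 56 intervals, or 9.24% ± 0.615 (SD, n = 3). Among intervals with at least 10 reads it was reached by 39 of 62, 33 of 54 and 34 of 50. Intervals with 3 reads had no room for such a ratio, since their p-values all lie near the upper end of the lists, which is 0.0437, 0.0435 and 0.0432. The ratio of at least 10 was reached by 12.7% ± 1.45 of intervals on 1 RefSeq gene and by 3.48% ± 0.553 of readthrough intervals (SD, n = 3). HNRNPA1 is in the first of these kinds, and all of its 30 intervals with at least 10 reads reached it.

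The widest gaps were at HNRNPA1. In replicate 2 the interval 54282596-54282665, with 41 reads, had 2.14e-34 under ENSG00000135486 and 1.29e-48 under ENSG00000258344, a gap of 14.2 on the log10 scale. In replicate 3 the interval 54284257-54284318, with 42 reads, had 2.92e-38 and 5.92e-51. In replicate 1 the interval 54282814-54282874, with 34 reads, had 6.55e-28 and 1.07e-38. All 34 shared intervals of HNRNPA1 had the lower p under the second ID, the one with more lines (18 against 13 in replicates 1 and 2).

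At CHML and OPN3 the lower p was under the first ID, ENSG00000054277, in 15 of 15 intervals. The interval at 241631210-241631324 in replicate 1, with 21 reads, had 1.37e-20 and 5.34e-12. The SNORD17 intervals had the lower p under ENSG00000125850, with 2.51e-31 against 1.08e-22 at 29 reads in replicate 2 and 1.05e-27 against 5.43e-19 at 27 reads in replicate 3. Here the ID with the lower p was the one with fewer lines, 5 against 9 in replicate 2. RPL26 had 1.47e-25 and 6.57e-31 under its first and second ID at 32 reads in replicate 1. The 3 PRDX2 intervals with 14 reads differed by 2.59, 3.02 and 3.13 on the log10 scale. MATR3, as high as HNRNPA1 in reads, is close to equal p-values in the plot of both p-values.

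**Figure D4:**
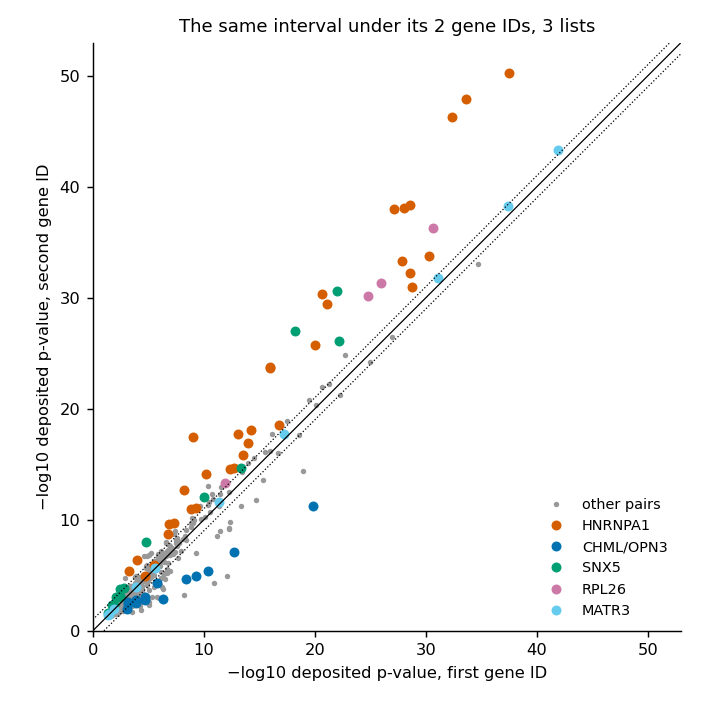
Each point is 1 interval with exactly 2 gene IDs in 1 of 3 lists. Axes are −log10 of the authors' p-value under the first and the second ID in order of ID number, the solid line marks equality and the dotted lines a 10-fold ratio. HNRNPA1 lies far above the line, with a gap of up to 14.2, and CHML/OPN3 lies below it.

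Which ID got the lower p was nearly always the same within a pair. Of pairs with 2 or more intervals in a list, 115 of 116, 110 of 110 and 142 of 142 had the lower p under the same ID at each of them. Of 135 pairs with an interval in every list, 124 kept the same ID throughout, which is 91.9%. At ANKHD1 with its readthrough gene the lower p was under the first ID in 10 intervals and under the second in 2. The 500, 504 and 612 intervals with 2 IDs were also compared by 3 measures, leaving out those whose IDs tied. By the stretch that an ID's lines spanned, 293, 294 and 362 could be compared. The lower p was under the ID with the longer stretch in 66.3% ± 2.43 of these. It was under the ID with more lines in 66.1% ± 3.43 of 274, 276 and 356. It was under the ID with the higher summed read number in 66.7% ± 1.93 of 284, 287 and 364 (SD, n = 3). The lines of a pair share intervals, so these 3 shares describe much the same thing, and how the p-values were made is not given in the sources used here.

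Identical bounds were not the only way in which 1 peak was listed under 2 genes. A further 197, 174 and 188 pairs of lines of 2 IDs overlapped on the same strand with other bounds. Of these, 104, 87 and 81 had the same start of the inner stretch, and 68.7% ± 3.72 of those also had the same read number (SD, n = 3). In replicate 1, MATR3 had chr5:139307420-139307531 under one ID and chr5:139307432-139307515 under the other. Both lines had 12 reads, and their deposited p-values were 3.4e-08 and 5.28e-09.

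So a set of IDs can drop out of a list by the rule although both IDs have overlapping lines there. HOXB9, a homeobox gene, had shared intervals of 10 reads in replicates 1 and 2 and none in replicate 3, where both IDs nevertheless had lines that overlapped, with 30 reads each. TMED7, a gene for a cargo protein of the early secretory pathway with a readthrough gene to TICAM2, had 16 and 14 in replicates 1 and 2, and in replicate 3 its 3 pairs of overlapping lines reached 12 and 13. IRS4, an insulin receptor substrate gene, had 23 and 17 in replicates 1 and 3, with lines of 13 and 12 in replicate 2. HNRNPU, the gene of scaffold attachment factor A, had 11 and 29 in replicates 2 and 3, with lines of up to 14 under each ID in replicate 1. In contrast, RCC1 and SNHG3 had shared intervals of 10 and 11 reads outside SNORA73B in replicates 1 and 3, and in replicate 2 neither ID had a line in that stretch. These genes were chosen after their values were seen. Within the stretch of a pair, 34, 44 and 29 intervals stood under 1 of its IDs with no line of the other over them, and 61.3% ± 11.2 of these had 3 reads, the lowest number in the lists (SD, n = 3).

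Over all read numbers, the rates at which shared intervals and the rest recurred lay close together. An interval was counted as recurrent when an interval of any kind in both other lists overlapped it by at least 1 bp on the same strand, which 15% of all intervals did (15.8%, 15.7% and 13.6% in the 3 lists). Of the shared ones 88, 82 and 93 did, or 15.3% ± 1.11, against 15.0% ± 1.23 of intervals under 1 ID (SD, n = 3). Shared intervals were higher in 2 of 3 lists and the difference was 0.252 ± 0.623 percentage points (exact two-sided sign-flip permutation test over the 3 lists, p = 0.5, adjusted p = 0.5 over 3 comparisons). The smallest p that 3 lists allow is 0.25, so no comparison here can pass 0.05. Recurrence in a list is defined by the other 2 lists, so the 3 differences in recurrence are not independent of each other. A shared interval that was overlapped in another list was overlapped there by a shared one in 76.5% to 88.7% of cases over the 6 ordered pairs of lists.

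Split by read number, the high intervals stood apart. At 3 reads, 2.41% ± 0.502 of shared and 2.93% ± 0.402 of other intervals recurred, and at 4 to 9 reads 15.9% ± 0.688 and 15.0% ± 0.746 (SD, n = 3). At 10 to 19 reads the shares were 69.6%, 70.0% and 61.1% of shared intervals, all above the 55.6%, 54.2% and 53.5% of the others. The difference was 12.5 ± 4.32 percentage points (exact permutation p = 0.25, the smallest possible). The same recurrent places can count in each list, so agreement of the 3 lists is not independent replication. At 20 reads or more, 16 of 16, 13 of 14 and 14 of 14 shared intervals recurred, and of the others 88.8%, 86.9% and 85.9%, a difference of 10.4 ± 4.16 (exact permutation p = 0.25). HNRNPA1 had a part in these values: at 10 reads or more together the difference was 10.9 percentage points with it and 7.53 without it. By kind, 52.1% ± 15.8 of intervals on a small RNA inside a host recurred, 17.4% ± 2.62 of those on 1 RefSeq gene and 10.9% ± 0.554 of readthrough intervals (SD, n = 3). The first kind had only 10, 10 and 13 intervals, and 40.3% ± 17.1 of them had at least 10 reads (SD, n = 3). The kinds were not compared at equal read numbers, and the kind on 1 RefSeq gene includes HNRNPA1.

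**Figure D5:**
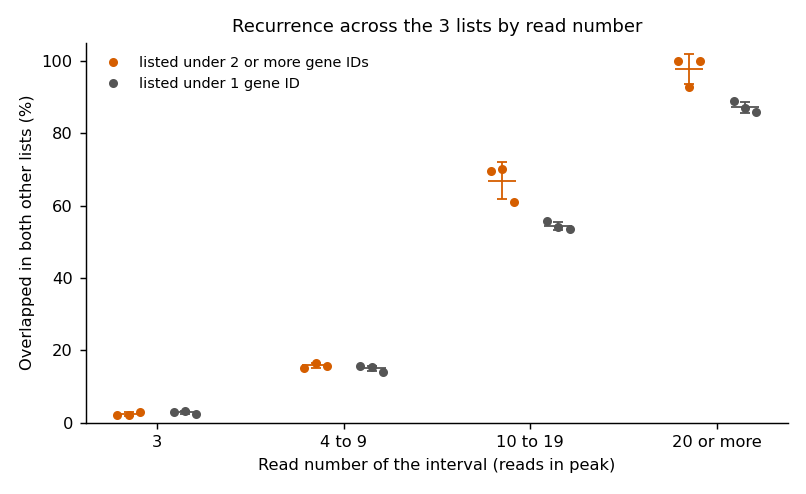
Percent of intervals overlapped in both other lists (vertical axis) by read number (horizontal axis), for intervals under 2 or more gene IDs and under 1. Points are the 3 lists, horizontal marks are means and bars are SD. The groups overlap up to 9 reads, and all 3 lists lie apart at 10 to 19 (66.9% against 54.4% on average).

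Heights and widths differed little on average. At least 10 reads were found in 62, 54 and 50 shared intervals, or 9.74% ± 1.98, against 10.6% of all intervals (11%, 11.3% and 9.69% in the 3 lists) and 10.7% ± 0.837 of those under 1 ID (SD, n = 3). The difference was -0.968 ± 1.37 percentage points, with shared intervals higher in 1 of 3 lists (exact permutation p = 0.5). At least 20 reads were found in 2.57% ± 0.424 of shared and 3.16% of all intervals (3.19%, 3.51% and 2.83% in the 3 lists). Median widths were 68, 64 and 68 nt against 63, 62 and 64, so shared intervals were the wider in 3 of 3 lists, by 3.67 ± 1.53 nt (exact permutation p = 0.25, adjusted p = 0.5). None was wider than 209 nt, whereas others reached 310, 328 and 313.

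Merging shared intervals that overlapped across lists gave 1422 regions. Of these 1205 came from 1 list, 146 from 2 and 71 from all 3, and none of the 71 had the same start and end in every list. The 71 lay in 53 genes or groups of genes: 38 on 1 RefSeq gene, 13 on readthrough genes, 8 with an ID of no single gene, 7 on several genes, 4 on a small RNA in a host and 1 on RN7SL1. Seen from the whole series, 2337 regions held an interval of any kind in all 3 lists, and 112 of these had a shared interval in at least 1 list.

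Along the gene, shared intervals were frequent near the downstream end. In protein-coding genes of at least 5000 bp that were alone at the position, 38.3%, 35.9% and 34.5% of 261, 270 and 325 shared intervals had their centre in the last 10% of the gene. The others had 31.8%, 33.4% and 31.5%, lower in each list. The first 10% held 8.26% ± 2.27 of shared and 7.05% ± 0.812 of other intervals (SD, n = 3). The genes themselves were shorter, with a median length over shared intervals of 36087, 37226 and 42696 bp against 58522, 58458 and 66462.5 bp. This comparison was added after the lists were seen, and positions in exons and in introns were not separated. The exact permutation p was 0.25 for the last 10%, 0.5 for the first 10% and 0.25 for gene length, where 0.25 is the smallest possible. By chromosome, 7.83% of intervals on chromosome 20, 7.64% on 19 and 7.60% on 21 were shared, against 1.01% on 4 and 0.998% on 18.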

How the data were processed

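Each of the 3 replicates has 1 peak list, so peaks were called per sample. Per the submitters' processing notes, the build is hg38 and the tools included bedtools and deepTools, with no version given. Which aligner and peak caller were used, with what background, and whether molecular identifiers were counted are not given in the sources used here. The authors deposited a p-value per line, all below 0.05, with no adjustment stated. Depth is known only as read numbers in peaks. Molecular identifiers were in the adapters, and no counting interval was computed.

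Lines with the same interval and strand were joined, and overlap meant 1 bp or more on the same strand. A gene ID was tied to the RefSeq genes that held at least 90% of its interval centres. The table gave positions for 59788 genes, and strands for 29078 came from the promoter and microRNA tables, so an overlapping gene on the other strand could be named where its strand was missing, as at HNRNPA1. Small RNA genes excluded pseudogenes. A readthrough gene was a hyphenated symbol whose parts are both genes nearby (184 genes). Intervals with no small RNA, no readthrough gene and no untied ID were split by whether 1 or several RefSeq genes covered them.

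Named sets are the 10 of each class with the highest lowest-list read number in all 3 lists, the 5 pairs with the largest p-value gaps at 10 or more reads in every list, the 3 with the most regions in all lists and up to 10 with 3 or more IDs. The members and lists were chosen with earlier results of these data known. Shared and other intervals were compared within lists by an exact sign-flip permutation test, with Benjamini-Hochberg adjustment over 3 comparisons. The overlap code was tested on simulated lists. Python 3.11.15, pandas 2.3.3 and numpy 2.4.6 were used. Alternatives were other overlap rules, stricter lists, a higher minimum read number, all chromosomes and leaving out each replicate.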

Additional observations from a re-analysis of the deposited data

How the results depend on the processing

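No paired analysis was possible because the 3 replicates form 1 group, so no replicate number pairs samples of different groups. The difference between shared and other intervals was taken within each list. Shared intervals per list, 577 on average, became 905 when any overlap under different IDs counted, 189 with a read number of 5 or more and 242 in stricter lists (the 50% with the lowest p-values). Regions in all 3 lists, 71, became 34 when 50% of both intervals had to overlap, 47 with a read number of 5 or more, 217 when 2 lists sufficed, and 110 to 129 with 1 replicate left out, since a region then needs 2 lists. The difference in recurrence, 0.252 percentage points, has no stable direction: it was -1.68 with 1 or more other lists, -0.0336 with all chromosomes, -0.639 with 50% overlap, -0.522 at a read number of 3, -0.682 without small RNA genes and -1.05 without HNRNPA1 (chosen after seeing the data), and -2.01 to 1.13 with 1 replicate left out. It was 6.53 in the stricter lists and 12.0 when any overlap under different IDs counted as sharing. The difference in the share with 10 or more reads, -0.968, was 8.81 with sharing by any overlap, 2.60 in the stricter lists and -2.58 without HNRNPA1. It was -1.72 without replicate 1, -0.802 without replicate 2 and -0.381 without replicate 3. The difference in width kept its direction in all 8 alternatives. The cause of these changes was not tested.

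By class, the share of nested small RNAs, 1.90%, was 2.04% over gene pairs, 4.04% with a read number of 5 or more and 3.30% in the stricter lists. IDs not tied to a gene, 20.3%, came to 23.9%, 4.91% and 9.77%, and to between 17.7% and 21.0% with 1 replicate left out. Same-strand overlap, 56.0%, came to 53.4%, 69.2% and 63.5%, and to between 55.8% and 58.3% with 1 replicate left out. Readthrough, 21.8%, came to 23.4% in the stricter lists. The share with differing p-values was 99.7% in the stricter lists and 9.24% for a ratio of 10 or more. Small RNA genes within the bounds of a longer gene on either strand that had a shared interval, 18 with RN7SL1 and without SCARNA2 and TERC, became 185 with any interval.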
